A study of Homo sapiens with 120 samples.

Results

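The genes described are 8 genes of cholesterol synthesis and its control: ACAT2, HMGCS1, MVD, IDI1, FDPS, SQLE, DHCR7 and INSIG1. They were chosen by name, and each name stood on a single row among the 30504 rows of the deposited FPKM table, which holds 27118 distinct names. FPKM are fragments of a transcript scaled by its length and by the mapped fragments of the library, so levels can be compared between genes per length. The cells were CFPAC-1, an established human pancreatic ductal adenocarcinoma line, in 120 libraries made with SMARTer cDNA amplification and Nextera XT tagmentation. Libraries came from microrafts, which are releasable culture elements of an array, from the Fluidigm C1, which captures cells in a microfluidic chip, and from bulk RNA of about 10000 cells. In the treatment experiment, 8 rafts scored as proliferative and 8 scored as nonproliferative were sequenced per arm. The 4 arms were no treatment, saline, gemcitabine at 2 nM and gemcitabine at 5 nM, a cytidine analog that blocks DNA synthesis. In the isolation experiment, untreated cells gave 10 libraries of rafts with 1 cell and 10 with 2 cells, 5 libraries of C1 captures with 1 cell and 5 with 2 cells, and 4 bulk libraries. The blanks comprised 7 water libraries, 5 C1 captures without a cell and 10 rafts without a cell. The labels give no duration of treatment and no culture of origin, and they list the number of cells on a raft of the treatment experiment as unknown. Fewer cells on a raft and less RNA per cell therefore cannot be told apart, and p-values measure the spread between rafts.

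Cells build cholesterol from acetyl-CoA through mevalonate, isoprenoid diphosphates and squalene, and the isoprenoids on the way also serve to anchor proteins in membranes. The genes of the pathway are switched on together by the transcription factor SREBP2 when sterols in the endoplasmic reticulum run low. When sterols are plentiful, INSIG proteins hold the SREBP escort protein SCAP in the endoplasmic reticulum, and the pathway falls silent. In the order of the pathway, ACAT2 is the cytosolic thiolase that joins acetyl-CoA units, HMGCS1 the cytosolic HMG-CoA synthase, MVD the mevalonate diphosphate decarboxylase, IDI1 the isopentenyl diphosphate isomerase and FDPS the farnesyl diphosphate synthase. SQLE is the squalene epoxidase and DHCR7 the reductase of a last step of the sterol part. INSIG1 makes no sterol but is the regulator named above, and its own gene is a target of SREBP.

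SREBP factors are known to act together with NF-Y, which binds CCAAT, so the 250 bases upstream of annotated starts were searched for that word on both strands. Of the 8 genes, 6 have starts in the RefSeq promoter table of build GRCh38.p14, with 10 starts in all, and 7 of those 10 starts held at least 1 CCAAT. At 6 of the 10 starts there were 2 or more, whereas 32.0% of all 35116 starts held at least 1 and 9.53% held 2 or more. The overlapping pair on the 2 strands at 1 IDI1 start was counted as 2. Printed here are starts of FDPS, MVD and DHCR7, the 3 genes in that table that differed between proliferation classes. Each is printed 5′ to 3′ on the gene's strand and ends at the base before the start, with CCAAT or its reverse complement ATTGG in capitals.
FDPS, chr1:155308616-155308865, plus strand: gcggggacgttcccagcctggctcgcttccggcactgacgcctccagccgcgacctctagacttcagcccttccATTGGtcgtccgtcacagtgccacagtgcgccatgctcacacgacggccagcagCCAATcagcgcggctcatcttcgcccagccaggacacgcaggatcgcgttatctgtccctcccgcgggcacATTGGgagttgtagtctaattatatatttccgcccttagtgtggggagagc
MVD, chr16:88663092-88663341, minus strand: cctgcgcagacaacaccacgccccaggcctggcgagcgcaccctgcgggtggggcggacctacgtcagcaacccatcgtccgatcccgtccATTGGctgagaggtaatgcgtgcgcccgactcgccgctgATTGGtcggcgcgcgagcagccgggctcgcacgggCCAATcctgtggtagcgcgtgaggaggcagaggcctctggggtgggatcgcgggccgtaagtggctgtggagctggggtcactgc
DHCR7, chr11:71448394-71448643, minus strand: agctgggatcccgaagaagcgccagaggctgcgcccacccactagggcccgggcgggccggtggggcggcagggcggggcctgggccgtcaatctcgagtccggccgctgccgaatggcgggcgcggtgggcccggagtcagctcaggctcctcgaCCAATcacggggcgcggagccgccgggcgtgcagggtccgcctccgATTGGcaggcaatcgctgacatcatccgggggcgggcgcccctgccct
The FDPS start held 3 CCAAT words, beginning 176, 122 and 51 bases upstream, and the MVD start held 3, beginning 159, 120 and 85 bases upstream. The DHCR7 start shown held 2, beginning 94 and 48 bases upstream, and its other annotated start held none. The sterol element TCACNCCAC was found at 0 of the 10 starts and at 0.883% of all starts, and the GC box GGGCGG was found at 9 of the 10 and at 42.6% of all. A match is a description of these letters and not a site in use.

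Many libraries of the treatment experiment did not resemble the cell line, and this touches every comparison of the 8 genes. Each library was compared with the mean of the bulk libraries by Spearman rho across 10767 genes. In the 34 of 64 arm libraries with rho of at least 0.25, between 1 and 8 of the 8 genes were detected at an FPKM of 1 or more, with a median of 6. In the other 30, at most 3 were detected, and 24 of them had none. Of the proliferative rafts, 22 of 32 reached this rho, against 12 of 32 of the nonproliferative rafts. The empty rafts and 6 of 7 water libraries also had none of the 8 genes, while the remaining water library listed ACAT2 at 1304.52 FPKM and FDPS at 1366.9 FPKM. In empty C1 captures HMGCS1 was listed at 3.31, 14.96 and 9.82 FPKM in 3 of 5 libraries, FDPS at 11.61 and 66.07 FPKM in 2, and IDI1, SQLE and INSIG1 in 1 each.

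**Figure D1:**
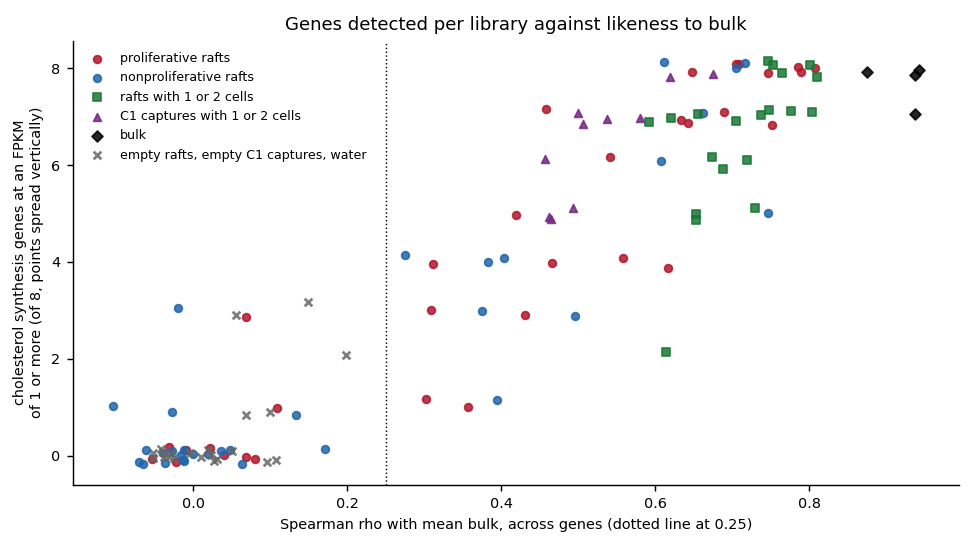
Each point is 1 of the 120 libraries, with Spearman rho with mean bulk across genes on the x axis and the number of the 8 genes at an FPKM of 1 or more on the y axis, spread vertically so that points can be seen. Left of the dotted line at 0.25, no arm library had more than 3 of the 8 genes, and all 4 bulk libraries sat at 7 or 8.

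Epithelial and ductal markers were present: 6 of the 7 listed markers in the table averaged at least 1 FPKM in rafts, C1 captures and bulk, and 5 or 6 in the groups of the arms. CFTR was at 0 in every library of all groups with cells except rafts with 1 cell. In empty C1 captures 4 of the 7 markers averaged at least 1 FPKM. Their sum there ran from 25.2 to 8999 FPKM, with a median of 95.6 FPKM. The summed epithelial markers moved with the class, with medians of 891, 3472, 5124 and 1922 FPKM in the proliferative rafts of the untreated, saline, 2 nM and 5 nM arms, against 647, 397, 124 and 1191 FPKM in the nonproliferative rafts. Of 4 hepatocyte markers, ALB and TTR were at 0 in every library with cells, and APOA1 and APOB together reached at most 26.8 FPKM, in a saline nonproliferative raft. Summed blood, fibroblast and endothelial markers had medians of 0 in all 8 groups of the arms. They reached 256, 94.4 and 49.7 FPKM in single nonproliferative rafts, against 17.6, 1.65 and 0 FPKM at most in proliferative rafts. Of 4 keratinocyte markers, KRT1 and LOR were at 0 in rafts with 1 cell and in bulk. The sum of the 4, with KRT10 and DMKN, had medians of 273 and 289 FPKM there. All 4 were at 0 in every blank.

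Between proliferation classes, 4 of the 8 genes were higher in proliferative rafts: FDPS, ACAT2, MVD and DHCR7. The other 4, IDI1, SQLE, HMGCS1 and INSIG1, were also positive but did not pass the test. The comparison used the 52 arm libraries with at least 1000 genes detected, 26 per class, on log2(FPKM + 1), averaged over the 4 arms. Differences are on that scale, which understates the change of low genes.

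FDPS makes farnesyl diphosphate, the branch point between sterols and protein prenylation. It was detected in 21 of 26 proliferative rafts, with a lowest, median and highest value of 0, 216 and 656 FPKM, and in 9 of 26 nonproliferative rafts, where the lowest, median and highest were 0, 0 and 2803 FPKM. The highest value of all stood in a nonproliferative saline raft, replicate 5, and the classes overlapped fully. The mean was 6.20 ± 3.32 in proliferative and 2.90 ± 4.2 in nonproliferative rafts (log2 scale, SD, n = 26 each). The difference was 3.50 ± 0.98 (SE), with an adjusted p of 0.014 (limma, Benjamini-Hochberg over 11560 genes), and its adjusted p ranged from 0.0038 to 0.515 over 10 other settings.

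ACAT2 opens the pathway. It was detected in 19 of 26 proliferative rafts (lowest, median and highest 0, 109 and 669.4 FPKM) and in 11 of 26 nonproliferative rafts (0, 0 and 533.4 FPKM). The mean was 5.18 ± 3.36 in proliferative and 2.24 ± 3.10 in nonproliferative rafts (log2 scale, SD, n = 26 each), and the difference was 3.09 ± 0.87 with an adjusted p of 0.0146 (limma, over other settings 0.0043 to 0.429). Exons of ACAT2 overlap TCP1, SOD2 and SOD2-OT1 on the opposite strand in GENCODE 29, and whether reads were counted by strand was not given, so part of its level is uncertain. The same holds for HMGCS1, IDI1 and FDPS, each of which overlaps an antisense RNA, and FDPS also has 8 named pseudogenes.

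MVD was detected in 15 of 26 proliferative rafts (0, 7.53 and 215 FPKM for lowest, median and highest) and in 4 of 26 nonproliferative rafts (0, 0 and 64.8 FPKM). Its difference was 2.24 ± 0.65 with an adjusted p of 0.0172 (limma, over other settings 0.011 to 0.36). DHCR7 was detected in 15 of 26 proliferative rafts (0, 9.66 and 462.1 FPKM) and in 6 of 26 nonproliferative rafts (0, 0 and 108 FPKM). Its difference was 2.06 ± 0.72 with an adjusted p of 0.0432 (limma, over other settings 0.030 to 0.648). DHCR7 had the highest adjusted p of the 4, and its call was lost when any of 23 single libraries was left out, while the other 3 calls held without each of the 52 libraries in turn.

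IDI1, which feeds FDPS with its substrate, was detected in 19 of 26 proliferative rafts (median 52.2, highest 203 FPKM) and in 12 of 26 nonproliferative rafts (median 0, highest 761 FPKM). Its difference was 1.75 ± 0.85 with an adjusted p of 0.142 (limma). SQLE was detected in 13 of 26 proliferative and in 5 of 26 nonproliferative rafts, with medians of 1.06 and 0 FPKM, and its difference was 1.25 ± 0.56 (limma, adjusted p = 0.114). HMGCS1 and INSIG1 differed least. HMGCS1 was detected in 14 against 10 rafts (0.81 ± 0.56, limma adjusted p = 0.311) and INSIG1 in 14 against 10 (0.76 ± 0.76, limma adjusted p = 0.494), proliferative rafts first.

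**Figure D2:**
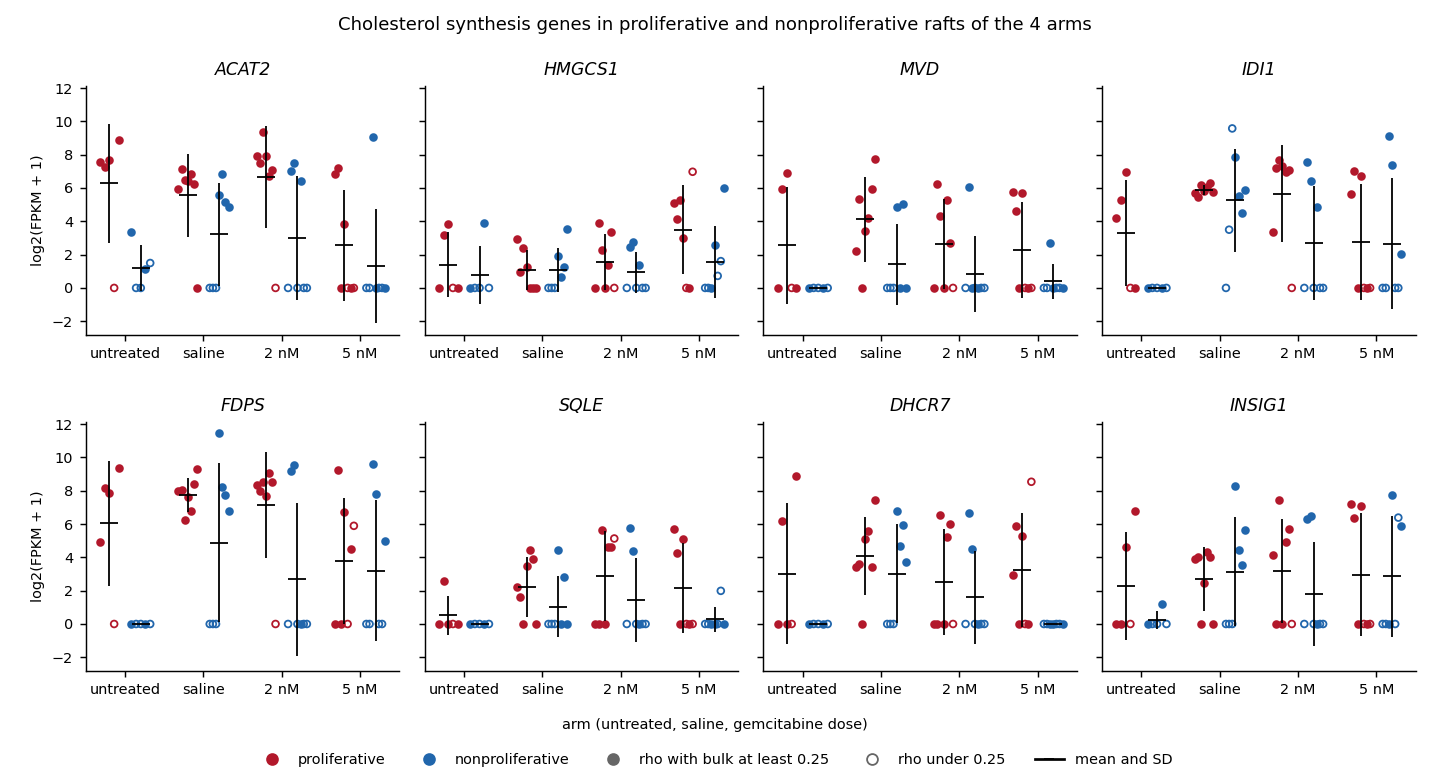
Levels of the 8 genes as log2(FPKM + 1) in the 52 arm libraries with at least 1000 genes, by arm, with proliferative rafts left of nonproliferative rafts. Open points, with rho under 0.25, lie mostly at 0. FDPS was at 0 in all 5 untreated nonproliferative rafts shown, 2 of which had rho of at least 0.25.

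Read against the whole table, 11.4% of genes were higher in proliferative rafts and 0.753% were lower by the same test, and the median of all genes was 0.58, against 1.91 over the 8 genes. Higher values were thus the rule across the table. Proliferative rafts had a median of 6022 genes and a median rho of 0.55, against 2800 genes and 0.152 in nonproliferative rafts (26 each). Rows that were abundant in blanks, PCSK5, TMEM45A and ASTN2, summed to medians of 0.97, 7.88, 8.32 and 22.2 FPKM in the proliferative rafts of the untreated, saline, 2 nM and 5 nM arms, and to 1331, 578, 1011 and 36.4 FPKM in the nonproliferative rafts. These medians and those of the epithelial markers take in all 8 rafts of a group, also those with under 1000 genes. The part of the rows abundant in blanks and of the epithelial markers in the result was not tested.

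The calls depended on which libraries entered. With only the 34 libraries of rho of at least 0.25, 22 proliferative and 12 nonproliferative, none of the 8 genes passed (limma, 1 at an unadjusted p under 0.05, and 0.714% of 10083 genes higher). In that fit the differences were 2.06 for MVD, 1.73 for ACAT2, 1.38 for FDPS and 1.16 for DHCR7, all positive, and −0.16 for HMGCS1 and −0.38 for INSIG1. The median of the 8 genes was 0.98, and that of all genes 0.32. Detection in these libraries was 19 of 22 proliferative against 10 of 12 nonproliferative for ACAT2, 20 of 22 against 9 of 12 for FDPS, and 15 of 22 against 4 of 12 for MVD. Among these 34 libraries MVD had the widest gap in share of libraries of the 3. With genes detected per library added as a covariate, none passed either (limma, 4 at an unadjusted p under 0.05), with all 64 libraries only MVD passed, and with quantile scaling only FDPS and ACAT2 did. Quantile scaling moved the median of all genes to 0.19 and the split of all calls to 533 higher and 127 lower, against 1313 higher and 87 lower as deposited. In that fit FDPS stood at 3.32 and ACAT2 at 2.51.

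**Figure D3:**
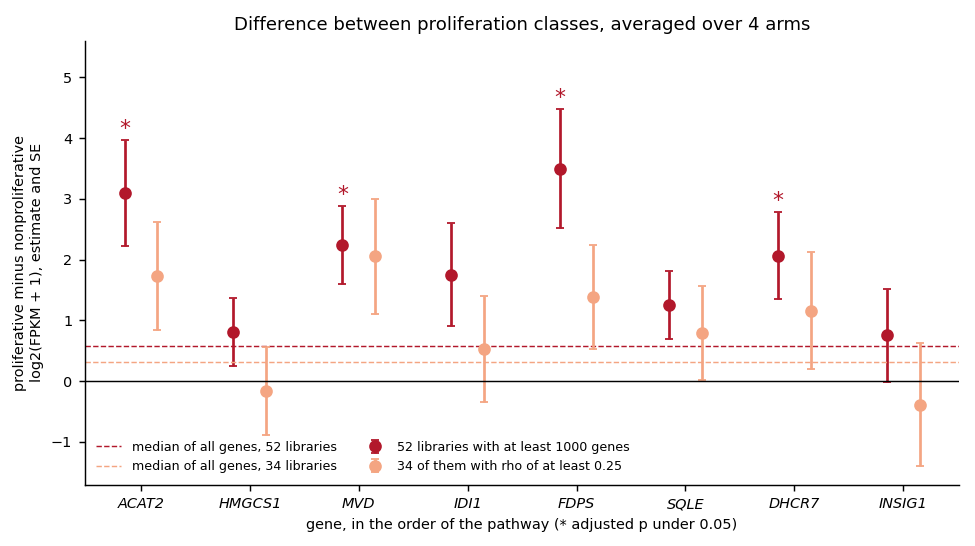
Proliferative minus nonproliferative difference of each gene on the log2(FPKM + 1) scale, with its SE, in 52 libraries and in the 34 of them with rho of at least 0.25, beside the median of all genes in each fit (dashed lines). An asterisk marks an adjusted p under 0.05, which FDPS, ACAT2, MVD and DHCR7 reached with 52 libraries and no gene reached with 34.

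Within single arms, no member passed the test in any arm (limma), with 2, 1, 2 and 1 of the 8 at an unadjusted p under 0.05 in the untreated, saline, 2 nM and 5 nM arms. Over all 11560 genes 0, 0, 2 and 0 passed, which is 0.0173% in the 2 nM arm, and 808, 1272, 1348 and 1030 had an unadjusted p under 0.05. In the untreated arm ACAT2 was listed at 191, 150.3, 201, 0 and 469.6 FPKM in the 5 proliferative rafts, against 9.25, 0, 0, 1.17 and 1.82 FPKM in the 5 nonproliferative rafts, and its difference was 5.08 ± 1.96 (limma, adjusted p = 0.563). FDPS was at 29.2, 281, 228, 0 and 656 FPKM in the same proliferative rafts and was listed at 0 in all 5 nonproliferative ones. MVD, IDI1, SQLE and DHCR7 were likewise listed at 0 in all 5 nonproliferative untreated rafts. Of these 5, only 2 had rho of at least 0.25, against 4 of the 5 proliferative rafts. Proliferative replicate 5, at 0 for ACAT2 and FDPS, had a rho of −0.053. The part of this in the untreated differences was not tested.

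The saline arm had the most libraries with rho of at least 0.25, 11 of 16, and the smallest median difference over the 8 genes, 1.14 against 2.79, 1.60 and 1.56 in the untreated, 2 nM and 5 nM arms. FDPS ran from 74.6 to 640 FPKM, with a median of 249.5, in the 7 proliferative rafts with rho of at least 0.25. In the 4 such nonproliferative rafts it stood at 2803, 296, 212 and 110 FPKM, so that the classes overlapped. IDI1 was even among the 7 proliferative rafts, from 42.6 to 77.7 FPKM, and spread from 21.5 to 229 FPKM among the 4 nonproliferative ones. Among these libraries only MVD and SQLE had a positive difference (1.64 and 0.43), INSIG1 was at −2.79 ± 1.71, and the median of the 8 was −0.40 against −0.05 for all genes (limma, all adjusted p 0.999). With all saline libraries of at least 1000 genes, which add 3 nonproliferative rafts of low rho, 7 of 8 were positive, and the median of all genes was 0.44.

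At 2 nM FDPS and ACAT2 showed the widest gaps. FDPS was detected in 6 of 7 proliferative rafts, from 205 to 526 FPKM, and in 2 of 7 nonproliferative rafts, at 588 and 736 FPKM. Both nonproliferative values exceeded all of the proliferative ones. The differences were 4.49 ± 1.86 for FDPS and 3.67 ± 1.66 for ACAT2 (limma, adjusted p 0.361 and 0.398). At 5 nM DHCR7 had the widest gap. It was detected in 4 of 7 proliferative rafts at 6.76, 58.4, 37.3 and 370.3 FPKM and was listed at 0 in all 7 nonproliferative rafts. The raft at 370.3 FPKM, replicate 8, had a rho of 0.069. At 5 nM, 5 of the 7 proliferative and 3 of the 7 nonproliferative rafts had rho of at least 0.25, against 6 and 3 of 7 at 2 nM. The part of this in the gaps was not tested. FDPS and IDI1 differed by 0.57 ± 1.86 and 0.12 ± 1.62 at 5 nM. The proliferation effect itself was not shown to differ between arms for any of the 8 (limma F test, 0 of 11560 genes called and 189 at an unadjusted p under 0.05, none of them among the 8).

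Tests between arms compare the rafts of each arm, for which no separate treatments or cultures are named, and arm and library pool cannot be told apart, since index pairs repeat between arms. For gemcitabine against saline, averaged over the classes, no member passed the test. In the table as a whole 4.56% of genes were lower and 0.0779% higher at 5 nM than in saline (limma). The 5 nM rafts held IDI1 in 6 of 16 libraries, against 13 of 16 saline rafts, and DHCR7 in 4 against 10. Counts and medians over 16 rafts take in all rafts of an arm. The tests used those with at least 1000 genes, 7 per class in saline and at 5 nM. IDI1 differed by −2.87 ± 1.15 (limma, adjusted p = 0.103), FDPS by −2.84 ± 1.32 (0.158), ACAT2 by −2.47 ± 1.17 (0.168) and DHCR7 by −1.93 ± 0.96 (0.188), and these 4 had an unadjusted p under 0.05. Without saline nonproliferative replicate 1 the IDI1 difference passed, at an adjusted p of 0.048.

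HMGCS1 ran the other way at 5 nM. It was detected in 8 of 16 rafts at 5 nM, with a median of 1.35 and a highest value of 125 FPKM, and in 6 of 16 saline rafts, with a median of 0.29 and a highest value of 10.8 FPKM. The 125 FPKM stood in proliferative replicate 8, with a rho of 0.069. Nonproliferative replicate 7, at 2.05 FPKM, had a rho of −0.020. The HMGCS1 difference of 1.46 ± 0.76 (limma, adjusted p = 0.206) did not pass, though it lay at percentile 98.5 of all genes in that comparison. Over 9 other settings it ran from 0.78 to 2.39. SQLE, MVD and INSIG1 stood at −0.42, −1.42 and 0.01, and the median of the 8 was −1.68, against −0.76 over all genes. The 5 nM rafts included 8 of 16 libraries with rho of at least 0.25, against 11 of 16 saline rafts.

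At 2 nM none of the 11560 genes passed against saline (limma, 768 at an unadjusted p under 0.05, none of the 8). The differences ran from −1.48 for DHCR7 to 0.52 for SQLE, with a median of −0.70 over the 8 and −0.52 over all genes. Saline against untreated rafts gave 0.381% of genes higher and none lower, and no member passed (limma, 2 at an unadjusted p under 0.05). IDI1 had the lowest p of the 8. It was detected in 13 of 16 saline rafts, with a median of 52.2 FPKM, and in 3 of 16 untreated rafts, at 17.65, 38.5 and 124 FPKM. Its difference was 3.93 ± 1.26 (limma, adjusted p = 0.0638, over other settings 0.014 to 0.991), and it passed with a pseudocount of 0.1, with all 64 libraries and without each of 5 single libraries. FDPS was detected in 11 against 4 of 16 and differed by 3.30 ± 1.44 (limma, adjusted p = 0.122). It passed with all 64 libraries (0.0306) and with those of rho of at least 0.25 (0.0323). The detection counts take in all 16 rafts of an arm. The differences of 3.93 and 3.30 used those with at least 1000 genes, 7 per class in saline and 5 per class untreated. The median of the 8 was 1.56, against 1.09 over all genes, and 11 of 16 saline against 6 of 16 untreated rafts had rho of at least 0.25.

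In the isolation experiment all libraries with cells had rho above 0.25, but the routes differed. Spearman correlation with bulk ran from 0.592 to 0.729 on rafts with 1 cell and from 0.457 to 0.538 in C1 captures with 1 cell. The rows abundant in blanks summed to medians of 11.9 FPKM on rafts with 1 cell and 216 FPKM in C1 captures with 1 cell, against 183 FPKM in empty captures. Their part in the differences between rafts and the C1 was not tested. Each group counts as 1 sample, since no culture is named for its cells, and no test was made. A difference of 2 or more on the log2 scale was used as the mark of size, with the share of all genes past it given beside.

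Bulk RNA set the order of the levels. IDI1 averaged 216 ± 46.3 FPKM, FDPS 188 ± 23.0 and ACAT2 118 ± 15.8 (SD, 4 libraries). A step below lay INSIG1 at 23.7 ± 6.61, HMGCS1 at 18.7 ± 10.3, SQLE at 18.01 ± 5.97 and DHCR7 at 17.9 ± 6.02 FPKM. MVD was lowest, at 4.49, 3.04, 2.92 and 0 FPKM. The members of the middle step overlapped one another, as did IDI1 and FDPS, while ACAT2 and the middle step did not overlap.

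FDPS lay near its bulk level in single cells on rafts. It was found in every raft and C1 library with cells, from 43.9 to 468 FPKM (median 255) on 10 rafts with 1 cell, and at 154, 1008, 224, 108 and 453 FPKM in 5 C1 captures with 1 cell, against 196, 180, 215 and 161 FPKM in bulk. The raft difference from bulk was 0.10 and the C1 difference 0.58 on the log2 scale. In C1 captures with 2 cells FDPS stood at 102, 495, 1193, 276 and 469.1 FPKM, a difference from bulk of 1.02, and it was also listed at 11.6 and 66.1 FPKM in 2 of 5 empty captures. ACAT2 was found in 9 of 10 rafts with 1 cell, with a median of 115 FPKM, and in 4 of 5 C1 captures, at 20.7, 49.3, 38.7 and 150.7 FPKM, against 111, 141, 109 and 109 FPKM in bulk. The raft cells thus bracketed the bulk level, and all but 1 C1 capture lay under it.

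IDI1 was lower than bulk by both routes. It had a median of 60.9 FPKM on rafts with 1 cell (0 to 385) and values of 13.0, 165, 8.43, 57.7 and 39.6 FPKM in C1 captures with 1 cell, against 237, 271, 187 and 169 FPKM in bulk. No C1 value with 1 or 2 cells reached the lowest bulk value, and on rafts 1 of 10 cells did. How many genes of the whole table separate from bulk in this way was not counted. The differences from bulk were −2.65 for rafts with 1 cell and −2.61 for C1 captures with 1 cell, and −1.93 and −1.33 with 2 cells. With 1 cell, these stood at percentiles 3.73 (rafts) and 10.4 (C1) of all genes. Of all genes, 9.74% lay 2 or more below bulk on rafts with 1 cell and 17.3% in C1 captures with 1 cell. By contrast, 1.62% and 11.2% lay 2 or more above. HMGCS1 (rafts) and ACAT2 (C1) were the only other members 2 or more below bulk with 1 cell.

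With 1 cell, HMGCS1 differed most of the 8 between rafts and the C1. It was detected in 4 of 10 rafts with 1 cell, at 4.08, 2.24, 15.61 and 2.43 FPKM, and in 5 of 5 C1 captures with 1 cell, at 9.81, 43.7, 29.9, 8.88 and 13.2 FPKM, against 33.6, 16.75, 14.1 and 10.35 FPKM in bulk. The C1 level was close to bulk and the raft level below both, at differences of −3.05 from the C1 and −3.02 from bulk on the log2 scale. With 2 cells the gene was found in 10 of 10 rafts, from 1.51 to 25 FPKM, and in 5 of 5 captures, from 13.7 to 34.2 FPKM, with a difference of −1.83. HMGCS1 was also listed in the 3 empty C1 captures named above, at values that reach into the range of captures with 1 cell. The part of such background in the difference was not tested. Past the same mark, rafts with 1 cell were lower than the C1 in 16.4% of all genes and higher in 12.4%.

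MVD showed the reverse pattern: 5 of 10 rafts with 1 cell held it, at 2.04, 3.53, 24.7, 38.2 and 18.4 FPKM, and none of the 5 C1 captures reached 1 FPKM. Its difference was 1.53, short of the mark. With 2 cells MVD was detected in 8 of 10 rafts and in 3 of 5 captures. Raft and bulk libraries fall into 2 sets by the naming of their titles, and 2 of the 5 raft detections were in set 1 and 3 in set 2.

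DHCR7 was uneven. On rafts with 1 cell it was detected in 5 of 5 of set 1, from 8.76 to 75.6 FPKM, and in 1 of 5 of set 2, at 20.9 FPKM. The sets also differed in genes detected per library, 7579 to 8461 in set 1 against 4804 to 6127 in set 2. The part of this in the DHCR7 detections was not tested. C1 captures with 1 cell held 0.26, 44.2, 165, 0 and 49.4 FPKM. Captures with 2 cells held 95.0, 38.0, 117, 33.7 and 37.9 FPKM, against at most 24.3 FPKM in bulk. The difference of 2-cell captures from bulk was 1.64, at percentile 84.2 of all genes. It was short of the mark of 2, which 11% of all genes passed upward. The 2-cell captures exceeded the 1-cell captures by 2.06, at percentile 96.2 (4.23% of all genes higher by 2 or more and 1.34% lower). Rafts with 2 cells differed from captures with 2 cells by −2.44, at percentile 7.51 (12.3% lower by 2 or more and 12.9% higher). Leaving out single captures moved the difference between captures with 2 cells and 1 cell between 1.12 and 2.96.

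SQLE was detected in 7 of 10 rafts and 4 of 5 captures with 1 cell, with medians of 9.77 and 4.9 FPKM, against 18.7 FPKM in bulk. INSIG1 was detected in 6 of 10 rafts and 4 of 5 captures with 1 cell, with medians of 9.09 and 9.77 FPKM, against 24.6 FPKM in bulk. It ran from 0 to 306 FPKM on rafts with 1 cell, and its SD of 3.04 there was the highest of the 8 on the log2 scale. In C1 captures with 2 cells INSIG1 stood at 1.49, 2.96, 7.3, 14.9 and 3.8 FPKM, a difference from bulk of −2.06, and 13.8% of all genes lay 2 or more below bulk and 11% above.

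Rafts with 2 cells held the genes more evenly than rafts with 1 cell, with 7 or 8 of the 8 genes detected against 2 to 7. Rafts with 2 cells also had more genes detected in all, with a median of 9179.5 against 6853. ACAT2 had an SD of 0.75 on rafts with 2 cells against 2.44 on rafts with 1 cell (log2 scale, n = 10 each), and FDPS of 0.64 against 1.20. The ACAT2 SD with 1 cell includes replicate 9 at 0 FPKM, where the next lowest raft had 43.43 FPKM. None of the 8 differed by 2 or more between them, where 2.88% of the table was higher on rafts holding 2 cells and 0.0188% was lower, and the median was 0.72 against 0.40 over all genes. Over the comparison of rafts and C1 with 1 cell, the median of the 8 was 0.10 and that of all genes −0.27, with 4 of 8 higher on rafts. With 2 cells on rafts, none of the 8 passed the mark against bulk (2.92% of all genes higher, 2.84% lower).

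**Figure D4:**
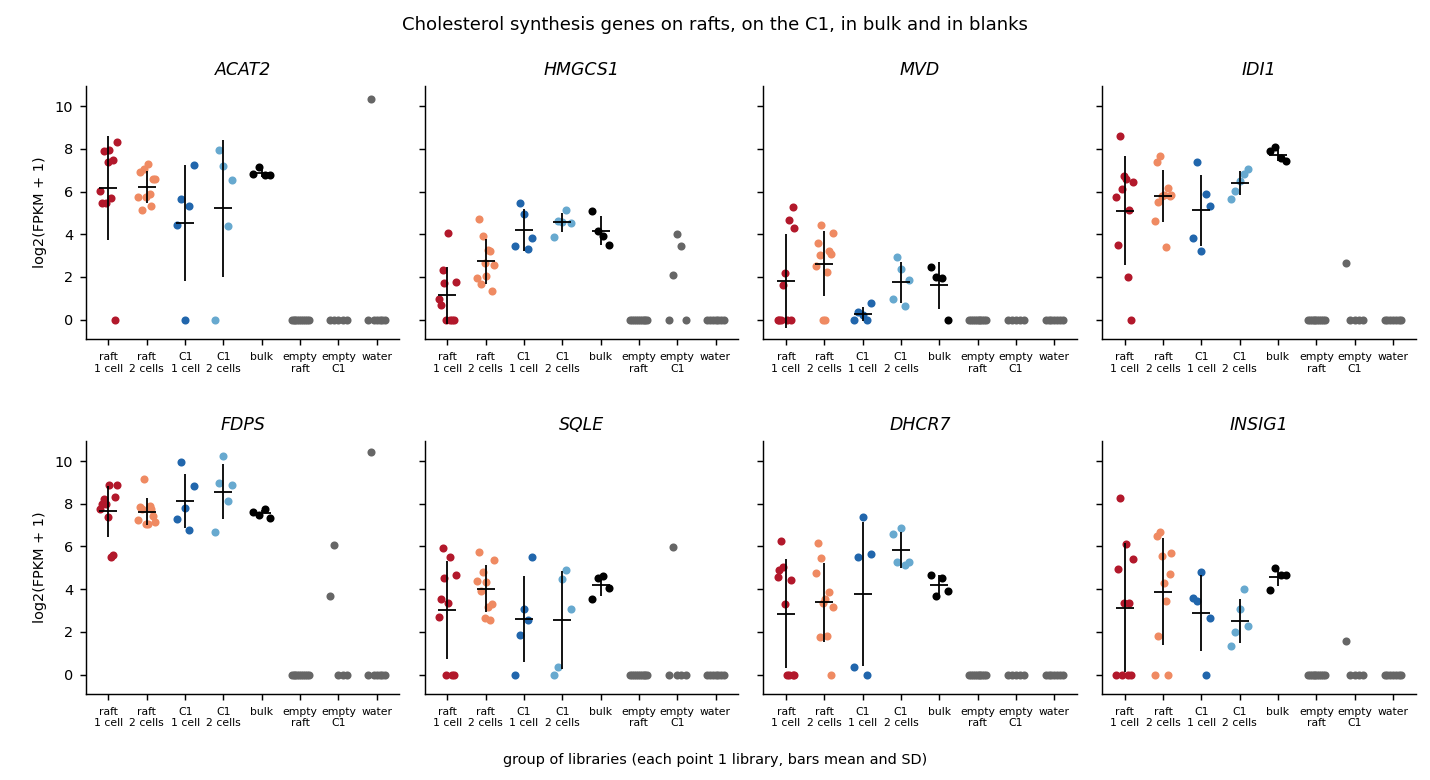
Levels of the 8 genes as log2(FPKM + 1) in rafts, C1 captures, bulk and blanks, each point 1 library, with the mean and SD of the groups with cells. HMGCS1 sits lower on rafts than on the C1 and in bulk, MVD lowest in C1 captures with 1 cell, and IDI1 lower than bulk in both, while FDPS is found in every library with cells and is 1.02 above bulk in C1 captures with 2 cells.

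Single rafts could carry most of the pathway at once. Raft replicate 3 with 1 cell had the highest values of the 10 for IDI1 (385 FPKM), SQLE (60.9), DHCR7 (75.6) and INSIG1 (306), whereas replicate 9 held only MVD (38.2) and FDPS (315). Over the 30 raft and C1 libraries with 1 or 2 cells, after each group's mean was subtracted, the 28 pairs of genes had Pearson r from −0.32 (MVD and IDI1) to 0.64 (ACAT2 and IDI1), with a median of 0.30. The pairs above 0.5 were ACAT2 and IDI1, HMGCS1 and FDPS (0.58), HMGCS1 and INSIG1 (0.53), and HMGCS1 and IDI1 (0.51). MVD was in all 5 pairs with r below 0. The values of a library share its number of genes detected, with which SQLE had an r of 0.52, DHCR7 0.40 and MVD −0.24. The part of depth in these values was not tested.

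**Figure D5:**
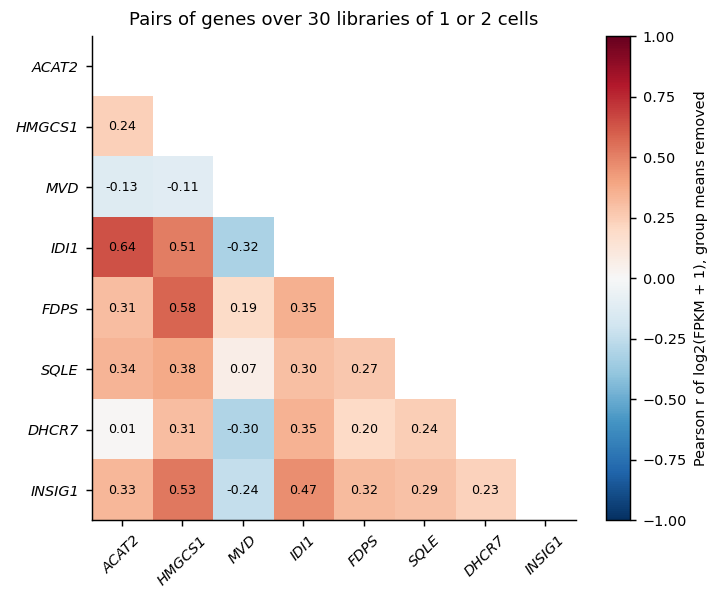
Pearson r of each pair of the 8 genes on log2(FPKM + 1) over 30 raft and C1 libraries with 1 or 2 cells, group means removed. ACAT2 and IDI1 have the highest r at 0.64, and MVD has all 5 values below 0.

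The 5 genes most like the mean of the 8 over these 30 libraries were SEL1L (r = 0.72), TGS1 (0.69), IDO1 (0.68), KIAA0488 (0.65) and ABHD4 (0.64), out of 8035 candidates with a median r of 0.07. SEL1L is a part of the degradation machinery of the endoplasmic reticulum, TGS1 caps small RNAs and IDO1 breaks down tryptophan.

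The other genes of the pathway are read against the 11.4% of all genes that were higher in proliferative rafts. Of 15 other enzymes of cholesterol synthesis tested, 1 was higher in proliferative rafts and none lower: PMVK, the kinase just before MVD, at 2.52 ± 0.79 (limma, adjusted p = 0.0277). FDFT1, the squalene synthase, stood at 2.05 ± 0.94 (0.12), EBP at 1.75 ± 0.88 (0.154) and NSDHL at 1.29 ± 0.69 (0.181). The median of these 15 was 0.44, under that of all genes at 0.58. Of 11 genes of fatty acid synthesis, 1 was higher, ACLY, which supplies cytosolic acetyl-CoA (2.05 ± 0.67, adjusted p = 0.033), with a list median of 0.58. None of 8 prenylation genes, 12 genes of sterol sensing and 12 of sterol uptake, storage and efflux passed (limma), with medians of 0.89, 0.47 and 0.15. With rho of at least 0.25 no gene of these 5 lists passed. At 5 nM against saline, where 4.56% of all genes were lower, ME1, which makes NADPH, was lower at −2.02 ± 0.59 (adjusted p = 0.0316). MBTPS1, the protease that first cuts SREBP, was lower at −2.47 ± 0.78 (adjusted p = 0.0468), and no other gene of the lists passed (limma). Both calls were lost with quantile scaling (limma, adjusted p = 0.227 for ME1 and 0.0928 for MBTPS1) and with the covariate (0.209 and 0.365), and both held with rho of at least 0.25. Like all tests between arms, these compare rafts for which no separate treatments or cultures are named. Arm and library pool cannot be told apart.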

How the data were processed

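The study measured RNA in 120 libraries of CFPAC-1 cells and blanks. The deposited values are FPKM per gene in 1 table, made with RSEM on hg19 per the submitters' processing notes, whose versions are not given in the sources used here; the strand of counting and the read depth are likewise not given, so no counting interval was computed. Libraries were assigned to groups by their labels, and 0 pairs of libraries were identical. Detection means an FPKM of at least 1. Class and arm comparisons used log2(FPKM + 1), genes detected in at least 8 libraries and libraries with at least 1000 genes, in limma 3.58.1 (R 4.3.3) with 1 mean per group, empirical Bayes moderation and Benjamini-Hochberg adjustment at 0.05. Isolation groups were described with no test. As a check of the fit, the libraries were shuffled once within arms and a constant was added to chosen genes in all proliferative libraries. Of 50 genes each shifted by 2, 3, 4 and 6 on the log2 scale, 11, 42, 47 and 50 were recovered among 11560 genes, with 0 unshifted genes called. The shuffle mixes libraries of low rho between the classes, so this check does not cover their uneven share in the real comparison. Replicate numbers did not pair the libraries: 5 of 21 pairs correlated above 0.1, with a median r of 0.02. The genes, gene lists and tests were chosen with earlier results of these data known. Genes named from the lists are up to 4 per list with the smallest p, by size where no test was made. Gene overlaps came from GENCODE 29 and promoters from RefSeq (GRCh38.p14), neither of the files' build. Other settings tried were pseudocounts of 0.1 and 10, other filters on genes and libraries, quantile and total scaling, a covariate, a replicate block and leaving out each library.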

Additional observations from a re-analysis of the deposited data

Results flagged for a closer look

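In 23 of 120 sets of values, a set being 1 gene or the number of the 8 genes detected in 1 group of 4 to 10 libraries, the highest or lowest library lay far from the others by Dixon's criterion. For normally distributed values chance gives this in about 1 in 20 groups. That rate does not hold here, since many values are 0, some are counts of genes, and sets without any spread were left out. In 13 of the 23 all other libraries of the group were at 0.

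In the arms, untreated proliferative replicate 3 had SQLE at 5.06 FPKM with the others at 0. Untreated nonproliferative replicate 4 had ACAT2 at 9.25 FPKM, next to 1.82, and replicate 7 had HMGCS1 at 13.73 and INSIG1 at 1.33 FPKM, with the others at 0, and 3 of the 8 genes detected where the next had 1. Saline proliferative replicate 5, a library of 735 genes, had IDI1 at 0, next to 42.58 FPKM, and FDPS at 0, next to 74.59 FPKM. In the 2 nM nonproliferative rafts, replicate 2 had MVD at 64.8 FPKM with the others at 0. In the 5 nM nonproliferative rafts, replicate 3 had ACAT2 at 533.4 and MVD at 5.61 FPKM and replicate 7 had SQLE at 2.97 FPKM, with the others at 0, and replicate 8 had HMGCS1 at 62.86 FPKM, next to 4.87.

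In the isolation experiment, raft replicate 9 with 1 cell had ACAT2 at 0, next to 43.43 FPKM, and 2 of the 8 genes detected where the next had 5. Raft replicate 4 with 2 cells had FDPS at 575.85 FPKM, next to 233.6. Bulk replicate 2 had ACAT2 at 141.34 FPKM, next to 111.01, and bulk replicate 4 had 7 of the genes detected where the others had 8. Among the blanks, empty C1 replicate 1 had IDI1 at 5.2 and INSIG1 at 1.94 FPKM and replicate 2 had SQLE at 61.23 FPKM, with the others at 0. Water replicate 2 had ACAT2 at 1304.52 and FDPS at 1366.9 FPKM and 2 genes detected, with the others at 0.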

How the results depend on the processing

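The 4 class calls of FDPS, ACAT2, MVD and DHCR7 did not hold under every setting. The number of the 8 genes called was 4 as reported, 2 with a filter for detection in 50% of libraries (3 of the 8 genes tested), 2 with quantile scaling, 1 with all 64 libraries, and 0 both with rho of at least 0.25 and with a covariate for genes detected. All genes called numbered 1400 as reported, 641 with all 64 libraries, 94 with rho of at least 0.25, 756 without a filter on low genes, 906 with a pseudocount of 10, 660 with quantile scaling, 225 with the covariate and 679 with the replicate block, under which 3 of the 8 were called and DHCR7 stood at 2.40 (limma, adjusted p = 0.0546). Leaving out 1 library gave between 780 and 2067 genes called and 3 or 4 of the 8, the lowest without untreated proliferative replicate 3 (780), replicate 4 (783), saline nonproliferative replicate 4 (881) and replicate 1 (906). For saline against untreated, 2 of the 8 were called with all 64 libraries, 1 with rho of at least 0.25 and 1 with a pseudocount of 0.1, and between 0 and 1 with 1 library left out. For 5 nM against saline, between 0 and 1 were called with 1 library left out, the 1 being IDI1 without saline nonproliferative replicate 1. All genes called there ranged from 9 to 877 over settings, and from 0 to 3021 for saline against untreated. The causes were not tested.

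Of the results of single genes, 52 turned their sign under a setting, none of which had passed the test. Another 611 kept their side of the threshold with no turn of sign, counting those of the F test between arms, which has no direction. A call was lost in 16 and gained in 4. With libraries of rho of at least 0.25, for the class average HMGCS1 stood at −0.16 and INSIG1 at −0.38, and for the classes of the untreated arm HMGCS1 at −0.18. For the classes of the saline arm ACAT2 stood at −0.043, HMGCS1 at −0.75, IDI1 at −0.040, FDPS at −0.78 and DHCR7 at −1.19, and for the classes of the 2 nM arm HMGCS1 at −0.35, SQLE at −0.91, DHCR7 at −0.76 and INSIG1 at −0.56, under that setting. For the classes of the 5 nM arm IDI1 stood at −2.30, FDPS at −3.37 and INSIG1 at −0.42, and for 2 nM against saline IDI1 at 0.53, under that setting. With the covariate for genes detected, for the class average INSIG1 stood at −0.26, and for the classes of the untreated arm SQLE at −0.14. For the classes of the saline arm HMGCS1 stood at −0.23, and for the classes of the 2 nM arm DHCR7 at −0.18 and INSIG1 at −0.21, under that setting. For the classes of the 5 nM arm IDI1 stood at −0.44, FDPS at −0.10 and INSIG1 at −0.69, and for 5 nM against saline SQLE at 0.62, under that setting. For 2 nM against saline INSIG1 stood at 0.84, and for saline against untreated ACAT2 at −1.41, SQLE at −0.23 and INSIG1 at −0.76, under that setting. With quantile scaling, for the classes of the untreated arm HMGCS1 stood at −0.53, and for the classes of the saline arm HMGCS1 at −0.022 and IDI1 at −0.24. For the classes of the 5 nM arm IDI1 stood at −0.19 and INSIG1 at −0.035, and for 2 nM against saline INSIG1 at 0.096, under that setting. For saline against untreated ACAT2 stood at −0.70, under that setting. With a pseudocount of 10, for the classes of the saline arm HMGCS1 stood at −0.013, and for the classes of the 5 nM arm IDI1 at −0.069. For 2 nM against saline INSIG1 stood at 0.033, under that setting. With libraries of at least 3000 genes, for the classes of the saline arm HMGCS1 stood at −0.38 and DHCR7 at −0.14, and for the classes of the 2 nM arm HMGCS1 at −0.41 and IDI1 at −0.013. For the classes of the 5 nM arm FDPS stood at −0.14, and for 5 nM against saline SQLE at 0.28, under that setting. For 2 nM against saline IDI1 stood at 0.61, FDPS at 0.12 and INSIG1 at 1.39, under that setting. With the replicate block, for the classes of the saline arm INSIG1 stood at 0.18. With a pseudocount of 0.1, for 5 nM against saline INSIG1 stood at −0.65, and for saline against untreated HMGCS1 at 0.60. With all 64 libraries, for saline against untreated HMGCS1 stood at 0.25. With single libraries left out, the classes of the saline arm ranged from −0.28 to 0.45 for HMGCS1, from −0.24 to 1.35 for IDI1 and from −0.97 to 0.41 for INSIG1. Those of the 5 nM arm ranged from −0.59 to 1.20 for IDI1, from −0.34 to 1.63 for FDPS and from −0.62 to 0.91 for INSIG1. For 5 nM against saline INSIG1 ranged from −0.40 to 0.44. For 2 nM against saline ACAT2 ranged from −0.039 to 0.98, HMGCS1 from −0.014 to 0.39 and INSIG1 from −0.79 to 0.032. For saline against untreated ACAT2 ranged from −0.13 to 1.12 and HMGCS1 from −0.23 to 0.37.

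The numbers of the replicates did not pair the libraries, so the replicate block is given here only. Libraries of at least 3000 genes gave no fit for the class average, the untreated arm or saline against untreated, since no untreated nonproliferative library had as many. In the isolation experiment the difference of HMGCS1 between rafts and the C1 with 1 cell was −4.63 with a pseudocount of 0.1 and −1.24 with 10. The depth is unknown, so an FPKM of 0 is not shown to be absence.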

Other observations

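Among other lipid genes, the following were chosen by the size of their difference between rafts and C1 captures, where 12.4% of all genes were higher on rafts by 2 or more with 1 cell and 16.4% lower. With 1 cell, SCD, the stearoyl-CoA desaturase, averaged 2.48 on rafts and 7.63 on the C1 (log2 scale), a difference of −5.15. HSD17B7, an enzyme of the sterol part of the pathway, averaged 0.94 on rafts and 5.77 on the C1, while ME1 averaged 3.76 on rafts and 0.05 on the C1. With 2 cells SCD differed by −4.68, HSD17B7 by −3.15 and ME1 by 4.12, all in the same direction as with 1 cell. Of the fatty acid list 1 of 10 genes was higher and 3 were lower by 2 or more with 1 cell. Of the other enzymes of cholesterol synthesis 0 of 15 were higher and 1 was lower by 2 or more. Each group counts as 1 sample, and no test was made.

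Genes of sterol sensing were mostly higher on rafts. Of 11 measured, 9 were higher on rafts than on the C1 with 1 cell (median 0.84) and 10 of 11 with 2 cells (median 1.06), against medians of −0.27 and 0.02 over all genes. Of 15 other enzymes of cholesterol synthesis measured, 6 were higher on rafts with 1 cell (median −0.33) and 2 of 15 with 2 cells (median −0.76). Between rafts with 2 cells and rafts with 1 cell, 13 of 15 of these enzymes were higher with 2 cells (median 0.77, against 0.40 over all genes).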
